A study of Mus musculus with 11 samples.

Results

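The 10 genes described here make pulmonary surfactant or mark the alveolar type II cell that makes it. They were chosen by name, as 4 surfactant proteins, 5 genes of surfactant packaging, processing, lipid and phosphate handling, and 1 transcription factor, out of 21874 genes tested. All 10 were on the array, with 19 probes, and each gene's brightest probe was well above background on all 11 arrays. Total RNA of whole mouse lung was hybridised to 11 one-colour Agilent arrays of 60-base probes. The lungs came from Foxa3 knockout (KO) mice challenged with ovalbumin (OVA), an allergen used to model allergic airway disease (3 arrays), from littermate control mice, labelled WT, challenged with OVA (3 arrays), from KO mice challenged with saline (2 arrays) and from WT mice challenged with saline (3 arrays). The labels give neither age, strain nor sex, nor the days of challenge, and call the knockout only Foxa3 KO. They speak of lung samples without saying that each came from a separate mouse, so the p-values below measure the spread between these samples.

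Surfactant is a film of phospholipid and protein that lowers surface tension in the alveoli. Type II cells assemble it in lamellar bodies and release it into the air space, where it is taken up again by these cells or broken down by alveolar macrophages. SP-B and SP-C are small hydrophobic proteins that spread the lipid film, while SP-A and SP-D are collectins, lectins that bind microbes and allergens. Forkhead factors of the FOXA family and NKX2-1 are known to act on promoters of surfactant protein genes in lung epithelium.

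The values turn on 1 probe for each gene, so the probes of the surfactant proteins are shown first, each read from the deposited array annotation with its mm7 position. The Sftpa1 probe lies at chr14:38560683-38560742 (plus strand), the Sftpd probe at chr14:38598705-38598764 (minus strand), the Sftpb probe between chr6:72325120-72327691 (plus strand) and the Sftpc probe between chr14:65165576-65165836 (minus strand). The Sftpb and Sftpc intervals span 2572 and 261 bases, more than the 60 bases of the probe, so both probes cover joined stretches of the genome. No annotation of that build was used here, so exon and UTR are not given.
Sftpa1 probe: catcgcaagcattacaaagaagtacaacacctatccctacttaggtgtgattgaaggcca
Sftpb probe: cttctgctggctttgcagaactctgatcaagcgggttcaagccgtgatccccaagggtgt
Sftpc probe: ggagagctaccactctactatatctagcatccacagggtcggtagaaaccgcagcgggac
Sftpd probe: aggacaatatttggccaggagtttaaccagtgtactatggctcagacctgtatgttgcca

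The promoter of Sftpb is shown because it alone among the members' promoters held both kinds of motif searched, the forkhead core (TGTTTA or TGTTTG) and an NKX2-1 core (CTCAAG), on either strand. It is the RefSeq window of 250 bases before to 50 bases after the gene's start on GRCm38.p6, chr6:72304360-72304659 (plus strand). Capitals mark the matches: counted from the start, forkhead cores begin at -223 and -87, the second on the opposite strand, and NKX2-1 cores begin at -100 and -15. The matches do not overlap.
Sftpb promoter: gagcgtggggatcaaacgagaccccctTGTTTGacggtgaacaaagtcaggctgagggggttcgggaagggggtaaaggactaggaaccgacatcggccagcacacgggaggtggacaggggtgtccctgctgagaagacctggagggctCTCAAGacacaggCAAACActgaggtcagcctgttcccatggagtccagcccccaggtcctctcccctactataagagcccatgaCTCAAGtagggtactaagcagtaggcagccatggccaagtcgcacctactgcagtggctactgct
The Sftpa1 promoter at chr14:41131538-41131837 (plus strand) is shown beside it for its 1 NKX2-1 core, which begins at -166.
Sftpa1 promoter: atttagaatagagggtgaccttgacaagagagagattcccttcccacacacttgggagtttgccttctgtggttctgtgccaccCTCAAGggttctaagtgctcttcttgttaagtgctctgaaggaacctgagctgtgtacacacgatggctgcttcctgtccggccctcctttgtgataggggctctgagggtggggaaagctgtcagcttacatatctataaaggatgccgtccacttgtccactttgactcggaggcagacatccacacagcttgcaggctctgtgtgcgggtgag
RefSeq promoters were matched for 7 of the 10 genes, in 8 windows since Etv5 has 2, and none was matched for Sftpc, Sftpd and Napsa. A forkhead core stood in 3 of 8 windows (Sftpb, Lamp3 and 1 of Etv5), against 28.2% of 32851 promoters, and an NKX2-1 core in 2 of 8, against 15.9%; 4.4% of all promoters held both. A match is a stretch of letters, not a site shown to be bound, and a window without one says nothing about the factor.

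Foxa3 itself, the targeted gene, had 1 probe, which was well above background on 0 of 3 KO OVA arrays and 0 of 2 KO saline arrays, against 3 of 3 WT OVA and 3 of 3 WT saline arrays. Expression is given as the log2 intensity minus the 75th percentile of its array, so 0 is the level of that percentile and a difference is the log2 of a fold change. Levels of different probes are not compared as amounts of RNA. The summed levels and the set of brightest genes given below are sums and ranks of probe intensity, and the brightest probes weigh most in a sum. Of all noncontrol spots, 71.74% to 79.3% were well above background per array, no probe of the 10 genes was saturated, and the number of arrays limits the precision. The arrays lay on 3 slides: slides 1 and 2 held 1 array of each group, and slide 3 held no KO saline array.

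After OVA, the 10 genes did not move together. In WT lungs 3 passed the test: Sftpd was higher, and Abca3, the lipid pump of the lamellar body, and Etv5, a factor that maintains type II cells, were lower. The Sftpd difference of 0.51 was 0.19 with quantile scaling, 0.15 in the authors' value table and 0.09 with no scaling, none of which passed, and 0.47 with median scaling, which did. The Abca3 call was lost with slide as a block (adjusted p = 0.0636). The other 7 did not pass an adjusted p of 0.05 in limma, although the surfactant protein gene Sftpb lay about as far below its saline level as Abca3. In KO lungs none of the 10 passed, and between KO and WT lungs none passed after either challenge. In whole lung, fewer type II cells and less RNA per cell cannot be told apart. Among all genes, 18.8% were called after OVA in WT lungs, so 3 of 10 members is read against that share; 10.9% were called higher, against 1 of 10 here, and 7.9% lower, against 2 of 10. In KO lungs 8.22% of all genes were called, against 0 of 10.

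**Figure D1:**
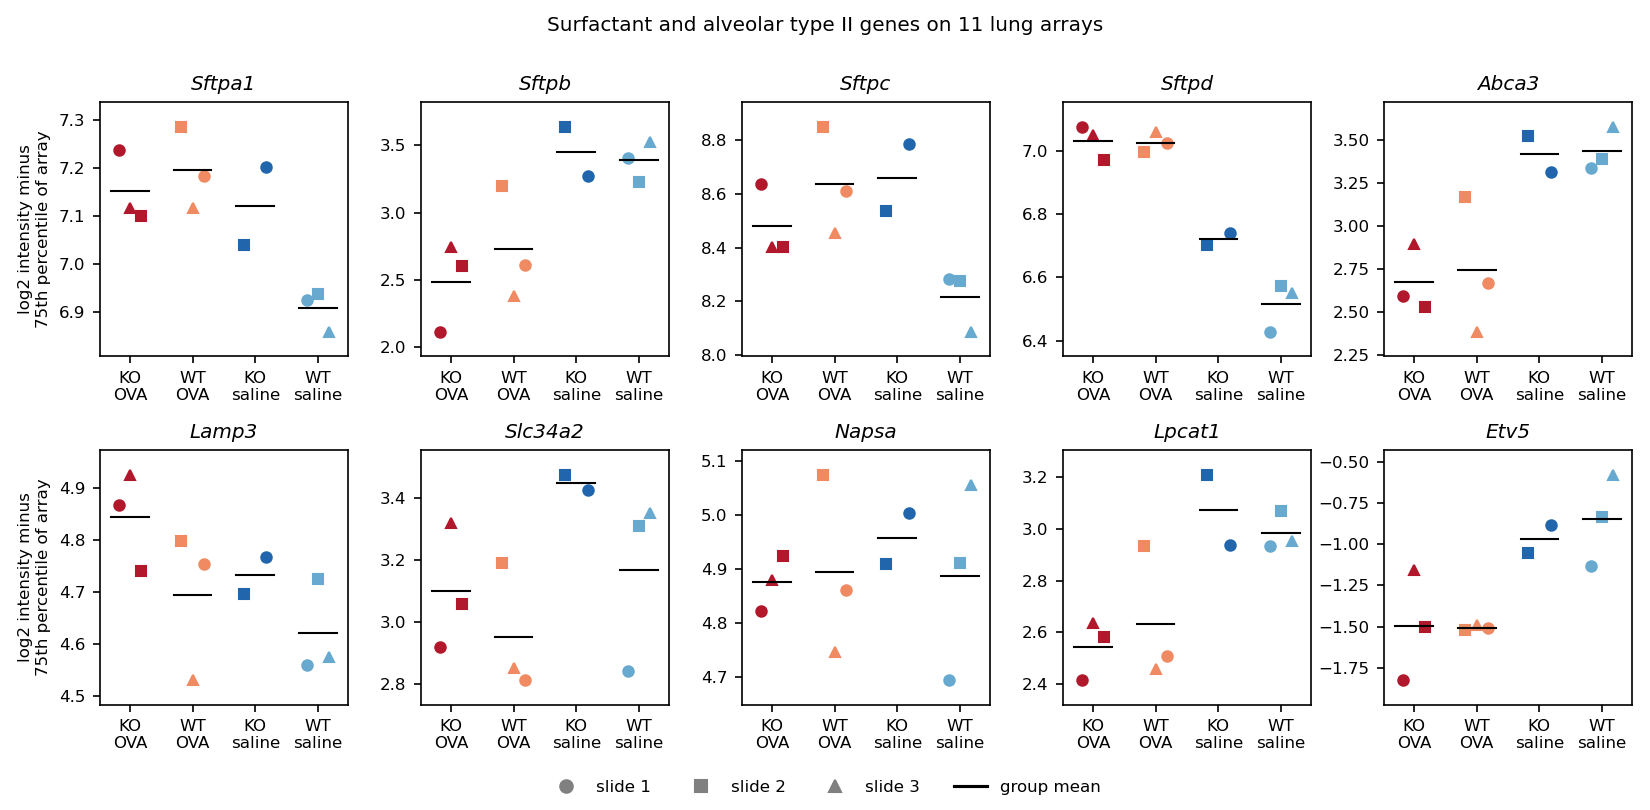
Level of each of the 10 genes on each of 11 arrays, as log2 intensity minus the 75th percentile of the array (vertical axis, a separate scale for each gene), for KO OVA, WT OVA, KO saline and WT saline lungs from left to right; the marker shape gives the slide and the line the group mean. Sftpd was higher and Abca3, Etv5, Sftpb and Lpcat1 were lower on every OVA array than on any saline array of the same genotype. For Lpcat1 in WT lungs this held only barely.

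Sftpd encodes SP-D. It stood at 7.08, 7.05 and 6.97 on the KO OVA arrays and at 6.99, 7.06 and 7.02 on the WT OVA arrays, against 6.70 and 6.74 on the KO saline arrays and 6.43, 6.57 and 6.55 on the WT saline arrays. All 6 OVA arrays lay above all 5 saline arrays. In KO lungs OVA minus saline was 0.31 ± 0.09 on the log2 scale (SE; limma, adjusted p = 0.0673), and 0.34 and 0.27 within slides 1 and 2. In WT lungs it rose by 0.51 ± 0.08 (1.42-fold; adjusted p = 0.00656), and by 0.60, 0.42 and 0.51 within slides 1, 2 and 3 (adjusted p = 0.0209 with slide as a block). The spread of Sftpd between arrays of one group, an SD of 0.0542, was among the lowest 0.612% of all genes, where the median SD was 0.22. The size of the rise in WT lungs moved with the scaling of the arrays: it was 0.19 after quantile scaling (adjusted p = 0.161), 0.15 in the authors' value table (adjusted p = 0.283) and 0.09 with no scaling (adjusted p = 0.724). It passed in all 11 fits without 1 array, and did not without the 4 arrays of slide 1 (0.47, adjusted p = 0.219).

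Sftpa1 encodes SP-A, the other collectin. Its main probe read 7.24, 7.12 and 7.10 in KO OVA lungs and 7.29, 7.12 and 7.18 in WT OVA lungs, against 7.04 and 7.20 in KO saline lungs and 6.93, 6.94 and 6.86 in WT saline lungs. The KO groups overlapped and the WT groups did not. The difference was 0.03 ± 0.10 in KO lungs (adjusted p = 0.882) and 0.29 ± 0.09 in WT lungs (adjusted p = 0.0571). A second, dimmer Sftpa1 probe gave 0.10 in KO lungs and 0.03 in WT lungs (adjusted p over all probes 0.667 in KO and 0.900 in WT lungs), so the probes differ in size in WT lungs.

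Sftpc encodes SP-C, whose precursor is the classical marker of type II cells. It read 8.64, 8.40 and 8.40 in KO OVA lungs and 8.85, 8.45 and 8.61 in WT OVA lungs, against 8.54 and 8.78 in KO saline lungs and 8.28, 8.28 and 8.09 in WT saline lungs. The WT saline arrays were the lowest 3 of the 11. OVA minus saline was -0.18 ± 0.15 in KO lungs (adjusted p = 0.454) and 0.42 ± 0.13 in WT lungs (adjusted p = 0.0567). Before scaling, the probe's intensity was nearly level on all arrays: 437000, 441000 and 449000 in KO OVA lungs and 421000, 405000 and 413000 in WT OVA lungs, against 473000 and 433000 in KO saline lungs and 415000, 432000 and 393000 in WT saline lungs. The saturation value was 610788 to 615197 per array, and whether the signal is compressed below it was not tested. The probe's SD over the 11 arrays was 0.0743 on the log2 scale before scaling and 0.228 after it. The array's 75th percentile, which the scaling subtracts, ran between 913 and 1450 and had an SD of 0.218. The OVA minus saline difference of this percentile was 0.15 on KO arrays and -0.42 on WT arrays (log2).

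The direction for Sftpa1 and Sftpc in WT lungs therefore depended on the scaling. With quantile scaling the differences were -0.07 for Sftpa1 and -0.00 for Sftpc, in the authors' value table -0.03 and -0.03, and with no scaling -0.14 and -0.00. Neither changed direction with median scaling. Sftpa1, Sftpc and Sftpd were among the brightest 1% of genes, 218 in all, by probe intensity, and that whole set had a median OVA difference in WT lungs of 0.28, with 163 of 218 above 0; the median was -0.15 with no scaling and 0.03 with quantile scaling. The median of all genes was 0.02. In KO lungs the bright set had a median of 0.03. Whether probe brightness has a part in the surfactant protein differences was not tested.

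**Figure D2:**
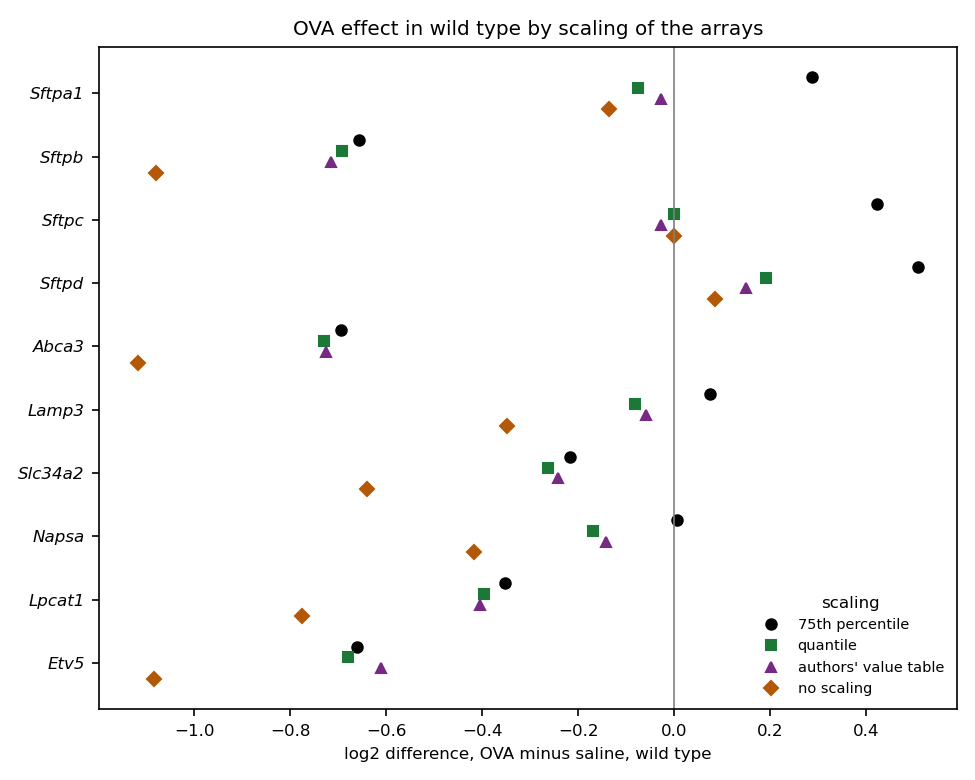
OVA minus saline in WT lungs (horizontal axis, log2) for each of the 10 genes under 4 scalings of the arrays: the 75th percentile, quantile, the authors' value table and no scaling. Sftpa1 and Sftpc lie above 0 with the 75th percentile and at or below 0 with the other 3, while Sftpb, Abca3, Slc34a2, Lpcat1 and Etv5 lie below 0 with all 4.

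Sftpb encodes SP-B, without which newborn lungs cannot keep their air spaces open. It read 2.12, 2.75 and 2.60 in KO OVA lungs and 3.20, 2.38 and 2.62 in WT OVA lungs, against 3.64 and 3.27 in KO saline lungs and 3.41, 3.23 and 3.53 in WT saline lungs. Every OVA array lay below every saline array, with WT OVA replicate 1 only just below. The differences were -0.97 ± 0.27 in KO lungs (adjusted p = 0.0575) and -0.66 ± 0.24 in WT lungs (adjusted p = 0.0812). Within slides they were -1.15 and -1.04 in KO lungs, and -0.79, -0.03 and -1.15 in WT lungs. Without WT OVA replicate 1 Sftpb passed the test in both, at -0.97 in KO lungs (adjusted p = 0.025) and -0.89 in WT lungs (adjusted p = 0.0181). This was the exception. Of the 11 fits without 1 array, Sftpb did not pass in 8 in KO lungs and in 10 in WT lungs.

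Abca3 carries phospholipid into the lamellar body. It read 2.59, 2.90 and 2.53 in KO OVA lungs and 3.17, 2.38 and 2.67 in WT OVA lungs, against 3.52 and 3.31 in KO saline lungs and 3.34, 3.39 and 3.58 in WT saline lungs. No OVA array reached a saline array. In KO lungs the difference was -0.74 ± 0.22 (adjusted p = 0.067), and -0.72 and -0.99 within slides 1 and 2. In WT lungs Abca3 fell by 0.69 ± 0.20 (1.62-fold lower; adjusted p = 0.041), and by 0.67, 0.22 and 1.19 within the 3 slides, with adjusted p = 0.0636 when slide was a block. The call in WT lungs was lost in 8 of the 11 fits without 1 array, whose differences ran between -0.91 and -0.52, and without WT OVA replicate 1 Abca3 also passed in KO lungs (adjusted p = 0.0224). Of 3 further Abca3 probes, 1 was not kept since it was above background on 1 array; the others gave -0.46 and -1.45 in WT lungs, neither past the threshold.

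Etv5 is an ETS factor downstream of fibroblast growth factor signalling that keeps type II cells in their state. It read -1.83, -1.16 and -1.5 in KO OVA lungs and -1.52, -1.49 and -1.51 in WT OVA lungs, against -1.05 and -0.88 in KO saline lungs and -1.13, -0.83 and -0.58 in WT saline lungs. The WT OVA arrays were nearly level and below all saline arrays. In KO lungs the difference was -0.53 ± 0.21 (adjusted p = 0.129), and -0.94 and -0.45 within slides 1 and 2. In WT lungs Etv5 fell by 0.66 ± 0.19 (1.58-fold lower; adjusted p = 0.0402), and by 0.38, 0.69 and 0.92 within slides (adjusted p = 0.0375 with slide as a block). A second Etv5 probe gave -0.86 in KO lungs (adjusted p = 0.0755) and -0.65 in WT lungs (adjusted p = 0.0851). The call in WT lungs was lost in 8 of the 11 fits without 1 array, with adjusted p between 0.0259 and 0.113 over these fits.

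Lpcat1, named Aytl2 on the array, makes the saturated phosphatidylcholine of surfactant. It read 2.42, 2.64 and 2.58 in KO OVA lungs and 2.93, 2.46 and 2.51 in WT OVA lungs, against 3.21 and 2.94 in KO saline lungs and 2.93, 3.07 and 2.95 in WT saline lungs. The OVA arrays were the lower in both genotypes, and WT OVA replicate 1 again stood nearest the saline arrays. It lay at 2.932, against 2.934 for WT saline replicate 1, so the WT groups barely missed overlapping. The differences were -0.53 ± 0.16 in KO lungs (adjusted p = 0.0729) and -0.35 ± 0.14 in WT lungs (adjusted p = 0.113). Slc34a2, the phosphate carrier of the apical membrane, had differences of -0.35 ± 0.19 in KO lungs and -0.22 ± 0.17 in WT lungs, with adjusted p = 0.254 in KO and 0.401 in WT lungs. It read 2.92, 3.32 and 3.06 in KO OVA lungs and 3.19, 2.85 and 2.81 in WT OVA lungs, against 3.47 and 3.42 in KO saline lungs and 2.84, 3.31 and 3.35 in WT saline lungs, so the WT groups overlapped.

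Lamp3 is a lamellar body membrane protein, also made by mature dendritic cells, and Napsa is a protease that processes the SP-B and SP-C precursors. Lamp3 read 4.87, 4.92 and 4.74 in KO OVA lungs and 4.80, 4.53 and 4.75 in WT OVA lungs, against 4.70 and 4.77 in KO saline lungs and 4.56, 4.73 and 4.58 in WT saline lungs. Its differences by the main probe were 0.11 (95% interval -0.15 to 0.38) in KO lungs and 0.07 (-0.16 to 0.31) in WT lungs. The next 2 probes of Lamp3 gave -0.05 and -0.59 in KO lungs and -0.08 and -0.23 in WT lungs, and the last, above background on 3 arrays, gave -0.96 in KO and -1.09 in WT lungs; none passed. Beside Lamp3, 7 of 9 mature dendritic cell markers were called higher after OVA in KO lungs and 8 of 9 in WT lungs (6 in KO and 8 in WT lungs with slide as a block). Their summed linear level, in units of the array's 75th percentile, ran from 18.4 to 24.1 in KO OVA and 15.5 to 27.6 in WT OVA lungs, against 6.12 to 6.86 in KO saline and 6.96 to 7.36 in WT saline lungs; their part in the Lamp3 value was not tested. Napsa read 4.82, 4.88 and 4.92 in KO OVA lungs and 5.07, 4.75 and 4.86 in WT OVA lungs, against 4.91 and 5.0 in KO saline lungs and 4.69, 4.91 and 5.06 in WT saline lungs. The groups overlapped, with differences of -0.08 (-0.39 to 0.23) in KO lungs and 0.01 (-0.27 to 0.28) in WT lungs.

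**Figure D3:**
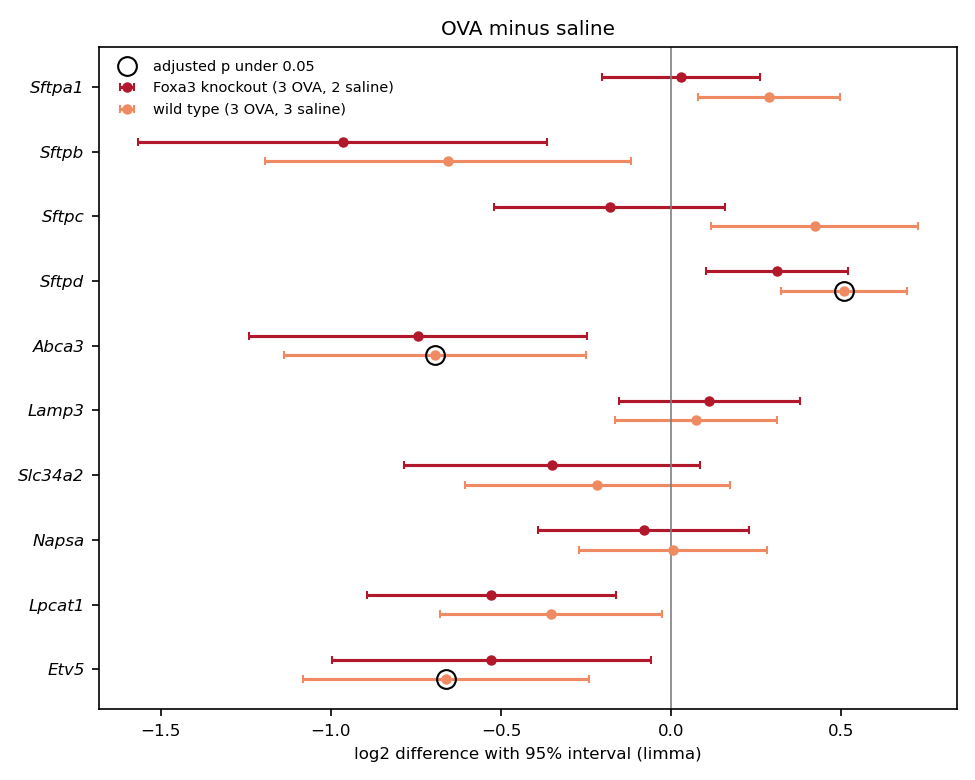
OVA minus saline (horizontal axis, log2, with 95% limma intervals) for each gene in KO lungs (3 OVA, 2 saline arrays) and WT lungs (3 OVA, 3 saline arrays); rings mark adjusted p under 0.05. The ringed values are Sftpd at 0.51, Abca3 at -0.69 and Etv5 at -0.66, all in WT lungs.

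Groups did not overlap for 6 of 10 genes in KO lungs and 7 of 10 in WT lungs, shares to be read against 48.9% and 42.7% of all genes. The median difference over the members was -0.27 in KO lungs and -0.11 in WT lungs, beside -0.01 in KO and 0.02 in WT lungs over all genes tested. Within slides the members' median was -0.34 and -0.28 in KO lungs on slides 1 and 2, and 0.07, 0.02 and -0.40 in WT lungs on slides 1, 2 and 3, so in WT lungs it was below 0 on slide 3 alone.

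Loss of Foxa3 left no detected difference in any of the 10 genes. After OVA, KO minus WT was called for 0.21% of all genes and for 0 of 10 members in limma. The members' differences ran from -0.24 for Sftpb (95% interval -0.78 to 0.29) to 0.15 for Lamp3 (-0.09 to 0.39), with overlapping groups for all 10 (they did not overlap for 8.22% of all genes), and the narrowest interval, for Sftpd, was -0.18 to 0.19 around 0.01. After saline, where there were 2 KO arrays, 0.096% of all genes and 0 of 10 members were called. There the farthest was Sftpc at 0.45 (0.11 to 0.79; unadjusted p = 0.0159, adjusted p = 1.00), with both KO saline arrays above all WT saline arrays; it was 0.50 and 0.26 within slides 1 and 2, and 0.13 with no scaling. Sftpa1 at 0.21, Sftpd at 0.20 and Slc34a2 at 0.28 also had groups that did not overlap, as 21.5% of all genes did. Over both challenges 0.302% of genes were called and again 0 of 10 members, the values running from -0.09 for Sftpb to 0.21 for Slc34a2. These values are of each gene's brightest probe, and no further probe passed either. The dimmest Lamp3 probe, above background on 3 arrays, gave -1.15 after OVA, -1.28 after saline and -1.22 over both (limma over all probes, adjusted p = 0.208 over both). The next 2 Lamp3 probes gave 0.17 and -0.20 after OVA and 0.13 and 0.17 after saline. The interval of Sftpb after OVA reaches past its OVA difference of -0.66 in WT lungs, so these tests do not show that the genotypes are alike.

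The OVA effect itself was not shown to differ by genotype. The test of the difference, KO minus WT, called 0.00457% of all genes, which is 1 gene, and 0 of 10 members. Sftpc was farthest from 0 at -0.60 (-1.06 to -0.15; unadjusted p = 0.0152, adjusted p = 1.00), and Sftpb gave -0.31 (-1.12 to 0.50). The Sftpc value depended on the scaling of the arrays, and was 0.02 in the authors' value table. With no scaling, OVA minus saline for Sftpc was -0.03 in KO lungs and -0.00 in WT lungs. The OVA comparisons in KO lungs and in WT lungs take their means from separate arrays. Each shares arrays with the comparisons of KO against WT lungs. All these tests use an estimate of spread taken over every group, so the p-values of KO and WT lungs are not independent.

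**Figure D4:**
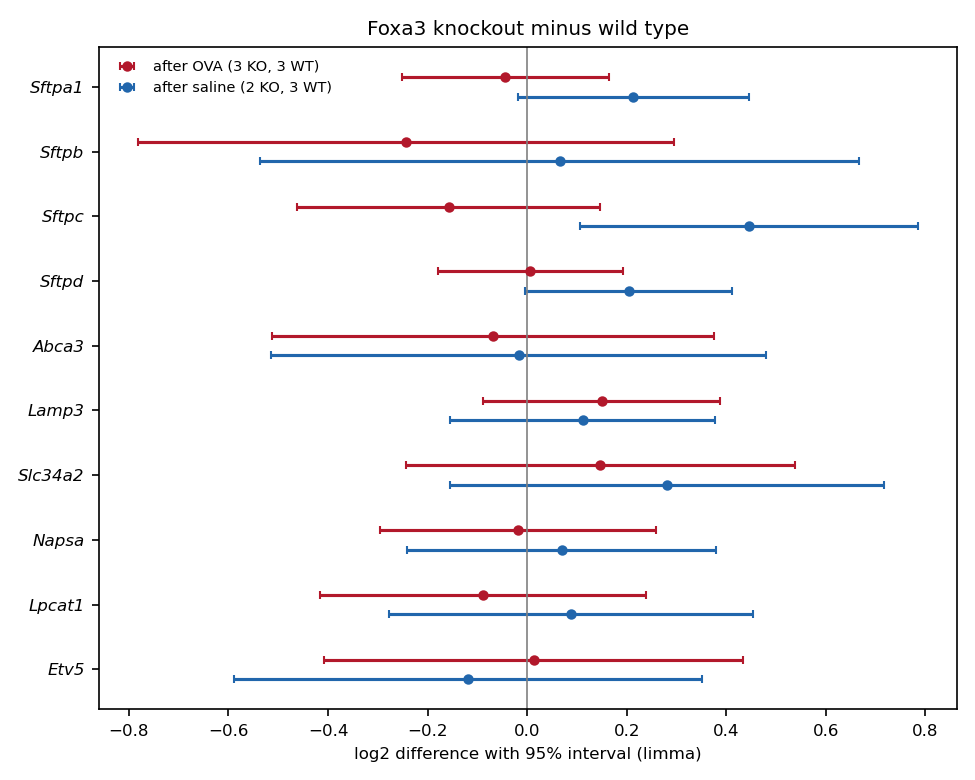
KO minus WT (horizontal axis, log2, with 95% limma intervals) for each gene after OVA (3 KO, 3 WT arrays) and after saline (2 KO, 3 WT arrays). All intervals include 0 except that of Sftpc after saline, at 0.11 to 0.79, whose adjusted p did not pass.

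Genes around the members were described by lists, whose counts are to be read against 8.22% of all genes called in KO lungs and 18.8% in WT lungs (10.9% higher, 7.9% lower). Of the 3 genes of surfactant processing and pool control, none passed after OVA in KO lungs, with Ctsh at 0.22, Adgrf5 at -0.85 and Pgc at -0.85. In WT lungs Ctsh, a cathepsin that processes the SP-B precursor, rose by 0.39 ± 0.11 (adjusted p = 0.0429) and Adgrf5, a receptor that limits the surfactant pool, fell by 1.07 ± 0.27 (adjusted p = 0.0295), and Pgc gave -0.99 (adjusted p = 0.214). Both calls were lost with slide as a block (adjusted p = 0.0512 for Ctsh and 0.0576 for Adgrf5), and Ctsh gave 0.16 with quantile scaling, 0.13 in the authors' value table and -0.03 with no scaling. Of 21 genes of lipid synthesis, 2 rose and 2 fell in KO lungs and 2 rose and 3 fell in WT lungs. Elovl6, which lengthens fatty acids, rose in KO lungs (0.55) and WT lungs (0.40), as did Me1, a source of NADPH, at 0.80 in KO and 0.43 in WT lungs. Scd2, a fatty acid desaturase, fell in KO lungs (-0.59) and WT lungs (-0.57), as did Lpin1, a phosphatidate phosphatase, at -1.02 in KO and -1.04 in WT lungs; Acaca fell in WT lungs at -0.47. With slide as a block 1 rose and 0 fell in KO lungs (Me1), and 0 rose and 2 fell in WT lungs (Scd2 and Lpin1). With no scaling Elovl6 gave -0.03 and Me1 0.01 in WT lungs. The median of the list was -0.20 in KO lungs and -0.10 in WT lungs.

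Of 10 genes of surfactant uptake and breakdown, 2 rose in KO lungs and 3 in WT lungs, and none fell. They were the chains of the GM-CSF receptor, Csf2ra at 0.85 in KO and 0.92 in WT lungs and Csf2rb at 1.26 in KO and 1.18 in WT lungs, together with Sirpa, a myeloid receptor of surfactant collectins, at 1.03 in WT lungs. With slide as a block the 3 WT calls held and both KO calls were lost (adjusted p = 0.105 for Csf2ra and 0.0664 for Csf2rb). All held with quantile scaling and in the authors' value table, and none held with no scaling. With no scaling the WT values were 0.50 for Csf2ra (adjusted p = 0.184), 0.76 for Csf2rb (0.0966) and 0.60 for Sirpa (0.141). Csf2ra in KO lungs was also lost with median scaling (adjusted p = 0.0750). Beside these myeloid genes, monocyte and macrophage markers were called higher for 5 of 7 in KO lungs and 7 of 7 in WT lungs (4 in KO and 5 in WT lungs with slide as a block). The markers' summed level was 51 to 96.5 in KO OVA and 52.7 to 117 in WT OVA lungs. In saline lungs it was 15.8 to 16.1 in KO and 16.3 to 18.9 in WT. The 9 alveolar macrophage markers were mixed, with 3 called higher and 2 lower in each genotype. Mrc1 and Itgax were higher in both, Fabp4 in KO and Chil3 in WT lungs, while Siglecf and Fabp1 were lower in both. With slide as a block 1 was higher and 1 lower in KO lungs, and 2 were higher and 1 lower in WT lungs. The part of either set of markers in the uptake genes was not tested.

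None of 12 alveolar epithelial transcription factors passed after OVA in either genotype. Nkx2-1, the master regulator of lung epithelium, gave -0.19 in KO lungs (adjusted p = 0.383) and -0.37 in WT lungs (adjusted p = 0.0654). Of the pioneer factors related to Foxa3, Foxa1 gave -0.47 in KO and -0.56 in WT lungs, and Foxa2 gave -0.59 in KO lungs (adjusted p = 0.0683) and -0.34 in WT lungs (adjusted p = 0.151). Klf5 gave -0.49 in KO and -0.62 in WT lungs, Tfcp2l1 -0.65 in KO and -0.57 in WT lungs, Nfib -0.25 in KO and -0.32 in WT lungs, and Gata6 -0.31 in KO and -0.21 in WT lungs. Stat3, which relays cytokine signals, gave 0.42 in KO and 0.37 in WT lungs (adjusted p = 0.0742 in KO and 0.0533 in WT lungs). Etv4, a relative of Etv5, gave 1.04 in KO lungs (adjusted p = 0.182) and 0.87 in WT lungs (adjusted p = 0.175). Cebpa gave -0.18 in KO and 0.02 in WT lungs, Grhl2 -0.05 in KO and 0.01 in WT lungs, and Ehf 0.07 in KO and 0.11 in WT lungs.

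Among 13 other genes known as type II markers, 3 rose in KO lungs and 3 rose and 2 fell in WT lungs. Those that rose in both were Il33, an alarmin cytokine, at 1.64 in KO and 1.51 in WT lungs, Lcn2, an iron-sequestering defence protein, at 1.79 in KO and 1.71 in WT lungs, and Chil1, a chitinase-like protein, at 0.90 in KO and 0.96 in WT lungs. Lgi3 at -1.15 and S100g, a calcium-binding protein, at -0.85 fell in WT lungs. With slide as a block the falls of Lgi3 and S100g were lost (adjusted p = 0.0576 and 0.0689), as was the Il33 call in KO lungs (adjusted p = 0.0608). Of 10 genes of transitional alveolar epithelium, Krt18, a keratin, rose at 0.45 in WT lungs, and none passed in KO lungs; the Krt18 call was lost with slide as a block (adjusted p = 0.0637), with quantile scaling (0.29, adjusted p = 0.0889) and in the authors' value table (0.28, adjusted p = 0.0625). For KO against WT none of these 6 lists had a called gene after OVA, after saline or over both challenges.

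Markers of other lung cells are given beside the type II genes, with the main scaling only. Their counts are to be read against the same shares of all genes. Of 9 alveolar type I markers, 0 were called in KO lungs and 2 fell in WT lungs, Akap5 and Clic5, both lost with slide as a block (adjusted p = 0.0761 and 0.0689); the list's summed level was 210 to 314 in KO OVA and 205 to 302 in WT OVA lungs, against 344 to 394 in KO saline and 333 to 345 in WT saline lungs. Of 5 club cell markers, 0 were called in KO lungs and 1 fell in WT lungs, Aldh1a1, which was lost with slide as a block. The club list's summed level was 316 to 464 in KO OVA and 326 to 613 in WT OVA lungs. In saline lungs it was 632 to 684 in KO and 547 to 601 in WT. Of 5 ciliated cell markers, 0 were called in either genotype. Endothelial markers were called lower for 1 of 5 in KO lungs and 3 of 5 in WT lungs, and with slide as a block for 0 in KO and 2 in WT lungs. The 5 measured goblet cell markers were called higher for 4 in KO lungs and for 5 in WT lungs, also with slide as a block. The summed level of the 10 members was 685 to 765 in KO OVA and 696 to 842 in WT OVA lungs, against 708 to 793 in KO saline and 581 to 623 in WT saline lungs. Sftpa1, Sftpc and Sftpd, whose WT differences depended on the scaling, made up 82.9% to 89.4% of this sum per array. The other 7 members summed to 81 to 90.6 in KO OVA and 73.5 to 96.8 in WT OVA lungs, against 97.8 to 101 in KO saline and 85.5 to 99.2 in WT saline lungs. The part of a changed cell makeup in the members' values was not tested.

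The genes whose pattern was most like each surfactant protein, by root mean square distance over the 11 arrays after centring, were Rpl37a (0.0525), Rps4x (0.0565) and Rps27a (0.0589) for Sftpa1. For Sftpc they were Rps12 (0.0717), Rplp0 (0.0753) and Eef1a1 (0.0979). For Sftpd they were Hnrnpk (0.0631), Rpl12 (0.0639) and Phf6 (0.066). For Sftpb they were Notum (0.116), Sh2d3c (0.123) and Phf24 (0.13). The median distance of all genes was 0.289 from Sftpa1, 0.531 from Sftpb, 0.334 from Sftpc and 0.355 from Sftpd. Among the members, Sftpb lay nearest Abca3 (0.157) and Sftpc nearest Sftpa1 (0.109). All arrays are shared by these distances, so they are a description. They also rest on scaled values. Before scaling Sftpc had an SD of 0.0743, against 0.218 for the subtracted 75th percentile. Its scaled values therefore largely follow that percentile with the sign turned. A small distance is not read as shared regulation, and the part of the scaling in the distances was not tested.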

How the data were processed

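Lung RNA was labelled with Cy3 and hybridised to 11 one-colour arrays. Per the file headers, the deposited intensity of a spot is the background-subtracted, detrended signal written by Agilent Feature Extraction, in version 9.5.1.1 (version 9.1 per the submitters' processing notes). The deposited value table holds log2 values of near equal medians (7.67 on each array) whose method the labels do not state. Spots marked uneven were left out, spots of a probe averaged, and the array's 75th percentile subtracted from log2 intensity. Probes well above background on at least 2 arrays were kept (32944 of 41174), and a gene took its brightest probe; names came from the array, updated through RefSeq (GRCm38.p6). Groups followed the labels. Each comparison used limma 3.58.1 in R 4.3.3 over all 11 arrays (1 mean per group, 7 residual degrees of freedom), with Benjamini-Hochberg adjustment over 21874 genes and a threshold of 0.05; the procedure was tested on simulated data. Alternatives changed the background correction, scaling, filter, probe rule, blocks, variance prior and arrays. The genes, lists and naming rules were chosen with earlier results of these data known: every member, the listed genes past the threshold, all genes of the processing and transcription factor lists, and the 3 genes nearest each surfactant protein were named.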

Additional observations from a re-analysis of the deposited data

How the results depend on the processing

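In KO against WT lungs after OVA, after saline and over both challenges, and in the difference of the OVA effects, 0 of the 10 members were called under every alternative run. After OVA in WT lungs 3 members were called, against 0 with normexp background correction, 1 with no filter on dim probes, 1 with only the groups compared and 0 without slide 1; the count was 5 with normexp without the spots of far brighter local background (5 on WT OVA replicate 1 and 7 on WT saline replicate 2), 5 with a trended robust prior and 5 with no scaling, an alternative chosen after seeing the data. In KO lungs the count of 0 became 2 with that second normexp, 1 with a filter asking for all arrays of a group, 4 with the trended prior and 2 in the authors' value table. These counts are to be read against calls over all genes. In WT lungs those were 4106 in the main fit, 5672 with the second normexp, 5075 with the trended prior, 8155 with no scaling and 3268 with no filter. In KO lungs they were 1798 in the main fit, 2259 with the second normexp, 2064 with that filter, 2771 with the trended prior and 2862 in the authors' table. Leaving out 1 array gave 0 to 3 members in KO and 1 to 4 in WT lungs. The lowest WT count, with Sftpd alone, came without WT saline replicate 2 or 3, KO saline replicate 1 or 2, or WT OVA replicate 2 or 3. The highest came without WT OVA replicate 1 (Sftpb, Sftpd, Abca3 and Lpcat1). In KO lungs 3 were called without WT OVA replicate 1 or KO OVA replicate 2, and 2 without WT OVA replicate 2. WT arrays do not enter the KO OVA or KO saline means, but they do enter the estimate of spread that all groups share. What set single arrays apart was not tested.

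Sftpa1 and Sftpc changed direction in WT lungs with quantile scaling (-0.0749 and -8.92e-05), with no scaling (-0.136 and -0.00125) and in the authors' value table (-0.0277 and -0.0281), and the Sftpc difference of OVA effects was 0.0171 in that table; this counts a sign change only where a value was called or its 95% interval left out 0. Sign changes of other member values numbered 6 of 250 in KO and 12 of 250 in WT lungs.

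Over all genes, the 4106 calls in WT lungs became 0 with normexp, 2716 with slide as a block, 2040 with only the groups compared, 27 without slide 1, 8155 with no scaling and 1051 to 6263 without 1 array. The 1798 calls in KO lungs became 0 with normexp, 845 with slide as a block, 444 with only the groups compared, 13 without slide 1, 1037 with no scaling, 1186 with no filter, 2771 with the trended prior, 2862 in the authors' table and 83 to 3303 without 1 array. Of the WT calls, 57.9% were higher, against 47.4% in the authors' table and 10.5% with no scaling, which moved the median of all genes by -0.41; of the KO calls, 78.4% were higher, against 57.3% in the authors' table and 95.3% with no scaling. The WT median was 0.13 with the second normexp and 0.11 with no filter. For KO against WT, 46 genes were called after OVA (1 to 95 over the alternatives), 21 after saline (0 to 29) and 66 over both challenges (4 to 75), and for the difference of the OVA effects 1 gene (0 to 1). The replicate block, a number shared in the labels whose samples deviated together in some pairs and apart in others (correlations -0.405 to 0.341), called 0 members in KO lungs and 2 in WT lungs (Sftpd and Etv5); over all genes it called 716 in KO and 3219 in WT lungs.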
